A study of Mus musculus with 6 samples.

Results

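The telomeric arm of mouse chromosome 3, as seen from the Sox2 control region (SCR), was described here at distances of more than 5 Mb. The SCR is a cluster of enhancers needed for expression of Sox2, a transcription factor of pluripotent cells. The members were all DpnII fragments with a midpoint above position 39660500 (mm9) in the 3 SCR libraries, chosen by position alone. They numbered 296326 of the 391360 fragments listed for chromosome 3, and they ran to the end of the chromosome, 125 Mb from the bait at 34660500.

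4C-seq reports which pieces of DNA were ligated to 1 chosen bait after fixation, so that a read marks a fragment that lay close to the bait in some cell. The 3 libraries were 2 biological replicates of J1 mouse embryonic stem (ES) cells (strain 129S4/SvJae, grown with LIF and freed of feeder cells) and 1 library of the same line after differentiation in vitro, called NPC. Differentiation lasted 6 days without LIF, with 5 μM retinoic acid during the last 4 days, and gave embryoid bodies. By the Methods, the cells for it were first grown without feeders in medium with 2 added inhibitors (2i conditions). The Methods name no such inhibitors for the J1 ES cells. The labels give J1 as the starting line of the NPC library and the Methods name F1 ES cells. No marker of pluripotent or neural cells was measured in these libraries, so that the identity of the NPC could not be checked here, and the NPC group had 1 library. All 3 were fixed in 2% formaldehyde for 10 min and cut with DpnII and then Csp6I, which cut at GATC and GTAC.

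As background, a chromosome in the nucleus is crowded within its own territory, and contact becomes rarer with distance along it. On top of that fall, megabase stretches rich in active genes tend to meet other such stretches (the A compartment), while gene-poor stretches tend to meet each other or the nuclear lamina (the B compartment). An active enhancer used as a bait is therefore often found with gene-rich stretches many megabases away. At such distances each cell gives few ligations, and a 4C profile is made of scattered fragments rather than of peaks.

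Most fragments of the arm had no read. ES replicate 1 had at least 1 read on 1534 fragments (0.518%, exact 95% interval 0.492 to 0.544%), ES replicate 2 on 2350 (0.793%, 0.761 to 0.826%) and NPC on 3350 (1.13%, 1.09 to 1.17%). The arm held 6.5% of the 6447786 reads listed for chromosome 3 in ES replicate 1, 6.80% of the 3915756 in ES replicate 2 and 17.8% of the 2889643 in NPC. These totals leave out other chromosomes and, by the authors' user guide, any fragment that held more than 2% of the reads. The library with the most listed reads had the fewest detected fragments. Of the detected fragments, 612, 716 and 971 had a single read, while the 100 most read fragments took 77.0%, 59.4% and 59.1% of the reads in the arm. Read numbers on single fragments hold PCR copies, and the exact intervals and counts here cover counting error only. The unit used below is therefore the detected fragment, that is, a fragment with at least 1 read.

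ES replicate 1 and NPC shared far more fragments than any other pair of libraries. They had 795 detected fragments in common, 51.8% of those of ES replicate 1 and 23.7% of those of NPC. The 2 ES replicates had 84 in common (5.48% of ES replicate 1 and 3.57% of ES replicate 2), and ES replicate 2 and NPC had 127 (5.40% and 3.79%). Independent detection, with the same chance for every fragment of the arm, would give 17.3 for ES replicate 1 and NPC. It would give 12.2 for the ES replicates and 26.6 for ES replicate 2 and NPC. Every pair thus shared more than these numbers, which take no account of distance or of other differences between fragments. Of the 114 fragments with 1000 or more reads in ES replicate 1, 96 (84.2%) also had reads in NPC, at a median of 3 reads. Of the 148 such fragments of NPC, 52 (35.1%) had reads in ES replicate 1, at a median of 1. Counting only fragments with 10 or more reads in both libraries, the overlap fell to 18 fragments for ES replicate 1 and NPC, against 12 for the ES replicates and 24 for ES replicate 2 and NPC. Whether the reads on these 795 fragments belong to both libraries was not tested, and the main values below are therefore also given without them.

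**Figure D1:**
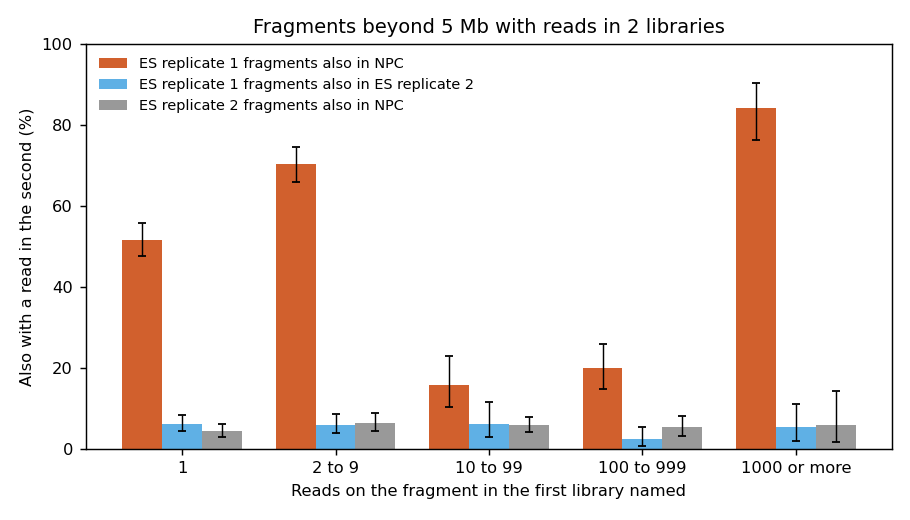
Fragments more than 5 Mb from the bait on the telomeric side that had a read in 2 libraries, in percent (y-axis), by the reads on the fragment in the first library named (x-axis); bars are shares and whiskers exact 95% intervals for counting error. ES replicate 1 shared 51.6% of its 1-read fragments and 84.2% of those with 1000 or more reads with NPC, while the other pairs stayed between 2.37% and 6.34% in every class.

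Only 33 fragments had reads in all 3 libraries. Ranked by their smallest count, the first 5 are printed here with their 5′ to 3′ sequence on the plus strand (mm9, at most the first 300 bases). All 33 are among the fragments shared by ES replicate 1 and NPC. Whether their reads belong to both of these libraries was thus not tested either. Capitals mark the DpnII site GATC and the Csp6I site GTAC.
chr3:106439845-106439952: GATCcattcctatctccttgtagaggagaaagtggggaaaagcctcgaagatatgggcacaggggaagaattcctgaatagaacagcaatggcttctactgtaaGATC
chr3:84960821-84961120: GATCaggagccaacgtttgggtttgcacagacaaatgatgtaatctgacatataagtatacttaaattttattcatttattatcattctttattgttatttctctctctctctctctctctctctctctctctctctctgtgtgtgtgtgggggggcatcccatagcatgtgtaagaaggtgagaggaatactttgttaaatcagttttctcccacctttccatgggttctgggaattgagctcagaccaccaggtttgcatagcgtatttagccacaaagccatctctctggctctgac
chr3:64127922-64128221: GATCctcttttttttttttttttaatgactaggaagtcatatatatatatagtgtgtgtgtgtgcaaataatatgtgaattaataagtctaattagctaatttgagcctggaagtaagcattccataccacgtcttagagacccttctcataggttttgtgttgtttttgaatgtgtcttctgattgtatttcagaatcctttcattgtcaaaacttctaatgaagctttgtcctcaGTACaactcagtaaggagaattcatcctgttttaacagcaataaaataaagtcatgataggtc
chr3:79982184-79982483: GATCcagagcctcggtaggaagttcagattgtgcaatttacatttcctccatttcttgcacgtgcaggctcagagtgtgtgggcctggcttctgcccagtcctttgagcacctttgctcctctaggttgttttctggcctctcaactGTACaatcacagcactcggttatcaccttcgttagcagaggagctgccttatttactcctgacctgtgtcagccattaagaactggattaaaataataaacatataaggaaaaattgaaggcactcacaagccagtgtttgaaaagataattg
chr3:89158956-89159255: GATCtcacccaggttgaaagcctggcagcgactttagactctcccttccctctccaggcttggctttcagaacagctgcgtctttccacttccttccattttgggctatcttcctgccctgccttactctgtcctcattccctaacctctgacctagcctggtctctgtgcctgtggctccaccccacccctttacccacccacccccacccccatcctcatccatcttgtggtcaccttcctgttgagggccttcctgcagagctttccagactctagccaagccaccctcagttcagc

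The fragment at chr3:106439845-106439952 is 108 bp long and had 8511 reads in ES replicate 1, 1072 in ES replicate 2 and 139 in NPC. It lies in no annotated gene, 71.8 Mb from the bait, in a megabase that was below the distance fit in all 3 libraries (log2 ratios of −0.79, −0.80 and −0.70). The fragment of 335 bp that starts at 84960821 had 116, 62 and 24 reads and lies between exons within the annotated span of Arfip1, which covers 1391.4 kb in this annotation. The fragment of 1045 bp that starts at 64127922 had 47, 41 and 19 reads, and the one of 2030 bp that starts at 79982184 had 12, 15 and 260. Both lie in no annotated gene, in megabases whose ratios were −0.07, −0.46 and −0.27 and 0.13, −0.72 and −0.16. The fragment of 383 bp that starts at 89158956 had 10, 4 and 49 reads and lies between exons of Dcst1, inside the longest run of megabases above the fit. Each of the 5 has at least 1 end whose 27 nt prey read is unique in the genome. Of the 33 fragments, 17 lay in the 19 megabases above the fit in all libraries and 3 in the 42 below it, as defined next. Those megabases held 45778 and 105205 of the 296326 fragments of the arm. They were defined from the same detected fragments, so that the counts of 17 and 3 give them no separate support.

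The share of fragments detected fell with distance in every library. It was 1.39%, 2.40% and 2.72% at 5 to 10 Mb in ES replicate 1, ES replicate 2 and NPC, and 0.178%, 0.266% and 0.495% beyond 80 Mb. The nearest class stood 7.78, 9.02 and 5.49 times above the farthest. In a logistic fit on the logarithm of distance, a distance 10 times longer lowered the odds of detection 5.23 times in ES replicate 1 (95% interval 3.91 to 6.99), 5.43 times in ES replicate 2 (3.85 to 7.67) and 4.23 times in NPC (3.39 to 5.27). These intervals overlap. They come from the scatter of bins around the fit within 1 library and do not cover the spread between libraries. Among fragments with 10 or more reads the values were 8.34 (5.32 to 13.1) and 7.25 (4.76 to 11.04) in the ES replicates and 3.55 (2.78 to 4.54) in NPC. The NPC interval does not reach those of ES, which with 1 NPC library is a description and no test. Without the shared fragments the values for all detected fragments were 4.37, 5.51 and 3.73.

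**Figure D2:**
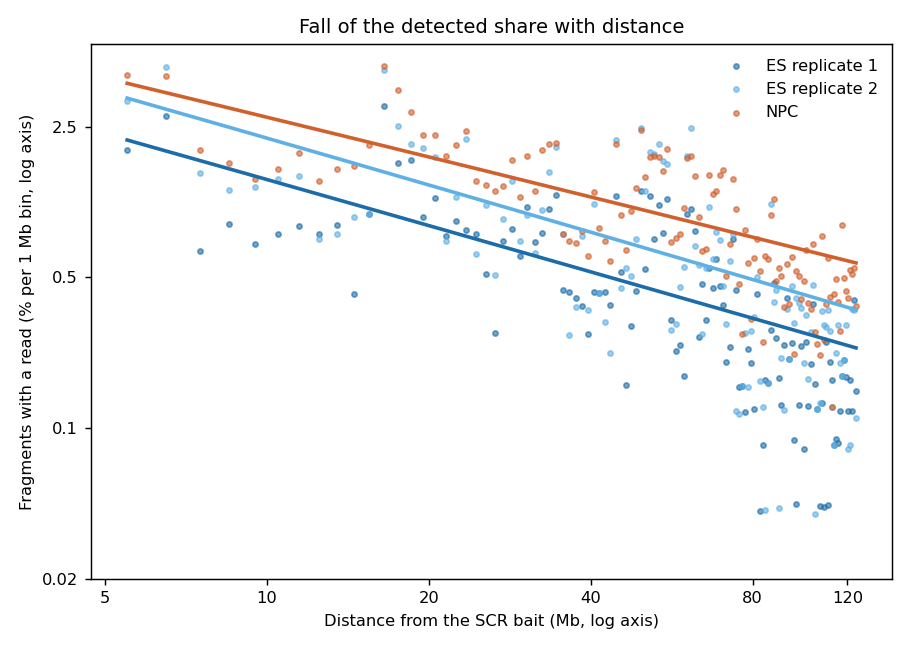
Share of fragments with a read in each 1 Mb bin (y-axis, percent, log axis) against distance from the bait (x-axis, Mb, log axis), 1 point per bin and library, with the logistic fit of each library as a line. The 3 lines fall together, 5.23, 5.43 and 4.23 times in odds for a distance 10 times longer, and in each library every bin at 16 to 19 Mb and at 51 to 56 Mb stands above its own line.

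NPC kept relatively more of the farthest contacts. Its detected share was 1.13 times that of ES replicate 2 at 5 to 10 Mb and 1.86 times beyond 80 Mb, and 2.0 and 2.78 times that of ES replicate 1. Without the shared fragments the ratio to ES replicate 2 went from 0.80 to 1.6, and among fragments with 10 or more reads from 0.71 to 2.90. Beyond 80 Mb, 0.210% of the fragments had 10 or more reads in NPC, against 0.0250% and 0.0723% in the ES replicates. NPC lay above both ES replicates there, but 1 library against 2 cannot give an exact permutation p below 0.333, and library quality cannot be told apart from cell type with 1 NPC library.

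At equal distance the telomeric side was detected slightly more often than the centromeric side, which reaches only 31 Mb here. Between 5 and 31 Mb the share was 1.06% against 0.904% in ES replicate 1, 1.6% against 1.34% in ES replicate 2 and 2.14% against 1.79% in NPC, or 1.17, 1.19 and 1.20 times. The excess was largest at 10 to 20 Mb, where the ratios were 1.54, 1.43 and 1.46. They were 1.11, 1.17 and 1.19 at 20 to 31 Mb and 0.83, 0.92 and 0.90 at 5 to 10 Mb. The ratios over 5 to 31 Mb without the shared fragments were 1.19, 1.19 and 1.22. The direction was the same in 3 of 3 libraries in each of these ranges. With 3 libraries, a two-sided exact sign-flip permutation test cannot go below 0.25.

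After the fall with distance was divided out, the arm broke into blocks of megabases above and below the fit. For each 1 Mb bin the number of detected fragments was divided by the number expected from the library's own fit, and a bin is called contacted at a log2 ratio of 0.3 or more (1.23 times the expected number) and avoided at −0.3 or less (0.812 times). Of 120 bins, 19 (15.8%) were contacted and 42 (35%) avoided in all 3 libraries. Without the shared fragments these counts were 20 and 27, and with a monotone fit of the fall 21 and 25. The counts were 31 and 62 in ES replicate 1, 26 (21.7%) and 65 (54.2%) in ES replicate 2 and 32 (26.7%) and 55 (45.8%) in NPC. Observed and expected numbers sum to the same total in each fit, yet more bins lay below than above it, and the median log2 ratio of all bins was −0.39, −0.40 and −0.26. Near the limit, the bin at 103660501 to 104660500 was just inside, with ratios of 0.35, 0.46 and 0.83, and the bin at 84660501 to 85660500 just outside, with 0.28, 0.88 and 0.52.

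**Figure D3:**
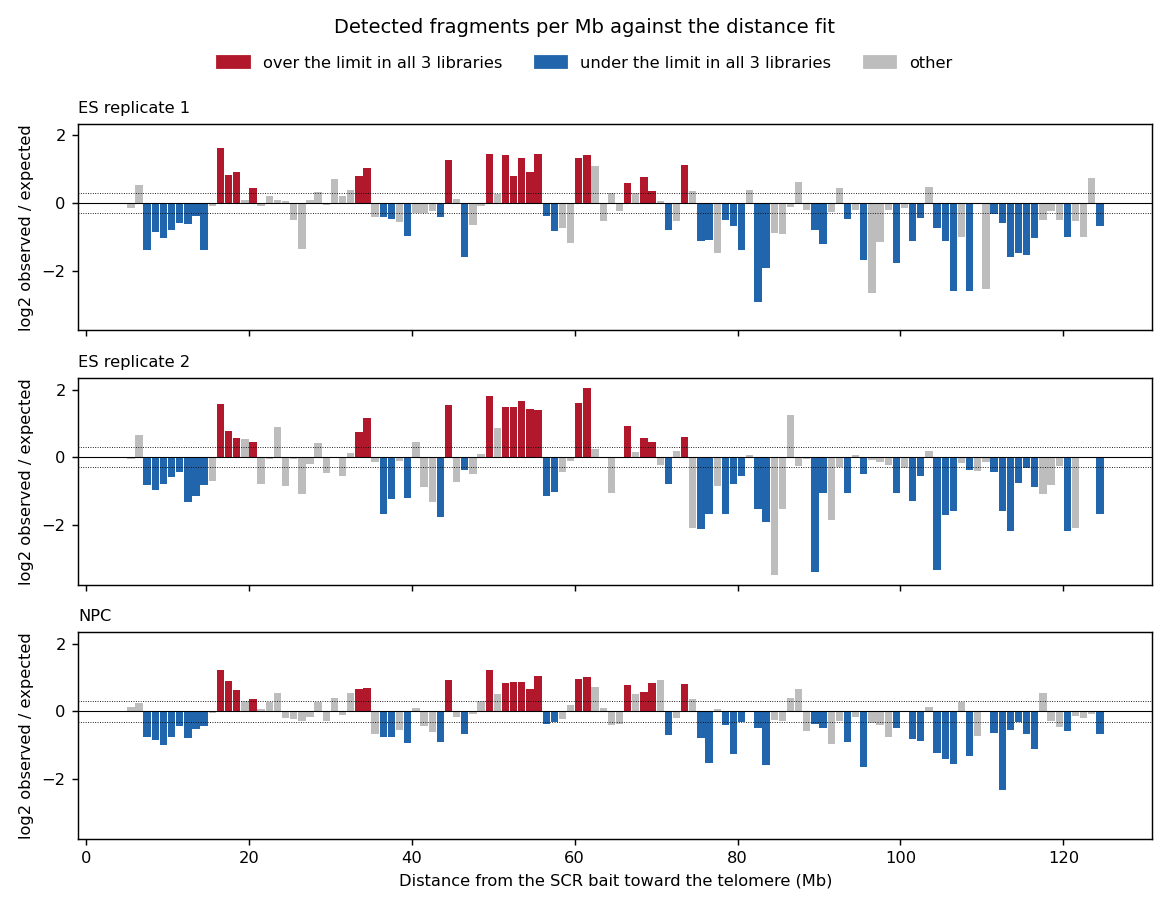
Log2 of observed over expected detected fragments (y-axis) in each 1 Mb bin by distance from the bait (x-axis, Mb), 1 panel per library; red bins were at 0.3 or more and blue bins at −0.3 or less in all 3 libraries, and dotted lines mark those limits. The 19 red bins gather between 16 and 74 Mb, and 26 of the 42 blue bins lie beyond 75 Mb.

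The same megabases stood out in ES replicate 2 and NPC, which shared 5.40% and 3.79% of their detected fragments. All 26 bins contacted in ES replicate 2 were above the fit in NPC, where 43 of all 120 bins were, and 23 of them passed the limit there (88.5% of the ES replicate 2 bins and 71.9% of the NPC bins). Summed over these 26 bins, NPC had a log2 ratio of 0.69, or 0.62 without the shared fragments. Of the 65 bins avoided in ES replicate 2, 61 were below the fit in NPC and 47 passed the limit, with a summed log2 ratio of −0.53. ES replicate 1 was above the fit in 24 of the 26 and below it in 59 of the 65. ES replicate 2 and NPC called 2 bins in opposite directions. Over the 120 bins, Spearman's correlation between the ratios was 0.75 for ES replicate 2 and NPC, 0.67 for the ES replicates and 0.73 for ES replicate 1 and NPC. Without the shared fragments these values were 0.72 (120 bins), 0.54 and 0.48 (115 bins each). Bins share their base composition and mappability across libraries, so these correlations are descriptions only.

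Contacted bins in both ES libraries (21 bins, 17.5%) formed 5 runs of 2 or more neighbours, which covered 14 Mb, and avoided bins (50 bins, 41.7%) formed 11 runs over 41 Mb. The runs were chosen on the ES values, and their ES ratios are given as a description; the NPC values were not used. With the straight logistic line NPC lay on the same side of the fit as ES in all 16 runs, between 0.68 and 0.99 in the contacted runs and between −1.38 and −0.31 in the avoided ones. It was nearer to 0 than both ES libraries in 4 of 5 contacted and 8 of 11 avoided runs, which a choice on ES values favours. Called on NPC alone, there were 7 contacted and 15 avoided runs. Of these, the contacted runs at 73 to 75 and 86 to 88 Mb overlapped no ES run. Nor did the avoided ones at 41 to 44, 64 to 66, 95 to 100 and 108 to 110 Mb. In the order ES replicate 1, ES replicate 2 and NPC, the ratios were 0.80, −0.18 and 0.61 at 73 to 75 Mb and 0.07, −0.46 and −0.39 at 64 to 66 Mb. The 3 libraries lay on 1 side in 5 of 5 contacted runs with each other fit, and in 10 of 11 avoided runs with a quadratic and 9 of 11 with a monotone fit. Without the shared fragments they did so in 5 of 5 and 11 of 11 runs, with NPC between 0.58 and 0.89 in the contacted and between −1.16 and −0.17 in the avoided runs. ES replicate 1 then lay between 0.43 and 1.41 and between −1.93 and −0.35. Its ratio moved from −1.27 to −0.54 in the run at 104 to 107 Mb and from −1.07 to −1.93 in that at 46 to 48 Mb.

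**Figure D4:**
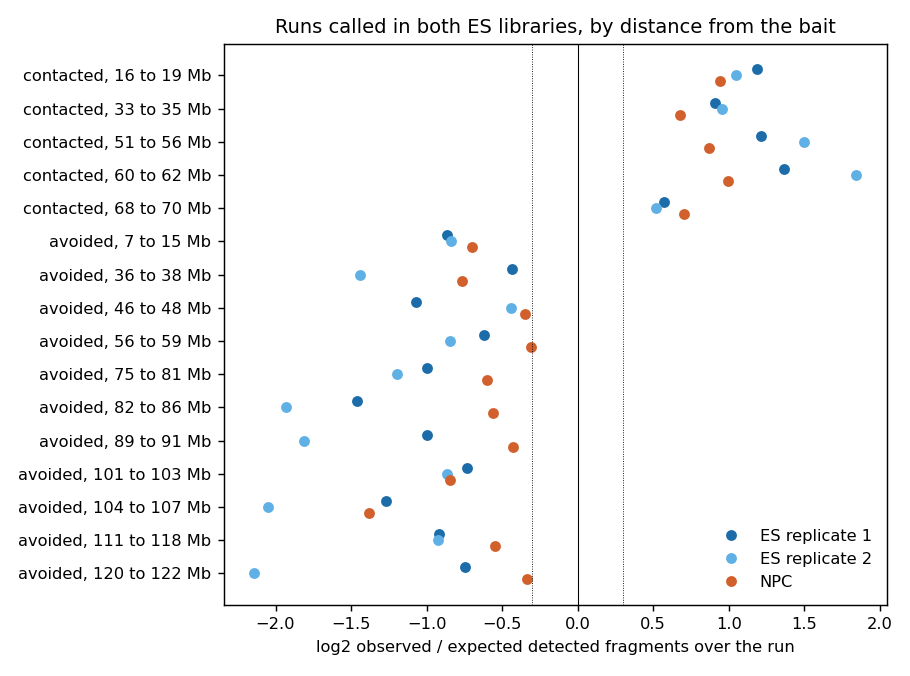
Log2 of observed over expected detected fragments (x-axis) over each run of neighbouring bins called in both ES libraries (y-axis, with distance from the bait in Mb), 1 point per library; dotted lines mark the limits of 0.3 and −0.3. NPC points lie between 0.68 and 0.99 in the 5 contacted runs and between −1.38 and −0.31 in the 11 avoided runs.

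The nearest contacted run lay 16 to 19 Mb from the bait (50660501 to 53660500). It had 154, 216 and 267 detected fragments in ES replicate 1, ES replicate 2 and NPC where 67.5, 104 and 139 were expected, with log2 ratios of 1.19, 1.05 and 0.94. Its first megabase, one of the 3 highest of the arm in ES, had 73, 108 and 112 detected fragments of 2348. The run held 20 protein-coding gene starts, and its longest genes were Maml3, which encodes a coactivator of Notch signalling, Lhfp, Frem2, a protein of the extracellular matrix, the ETS factor gene Elf2 and Foxo1, a forkhead factor held back by insulin signalling. Maml3 (51491533 to 51908813, minus strand) alone had reads on 19, 28 and 47 of its 986 fragments. Foxo1 had reads on 5, 3 and 8 of 126. The fragment with the most reads of the whole arm in ES replicate 1 (10535 reads, at 51163112) lay in this run.

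The next run, 33 to 35 Mb away (67660501 to 69660500), had 53, 84 and 99 detected fragments against 28.2, 43.3 and 61.9 expected, with log2 ratios of 0.91, 0.96 and 0.68. It held Schip1, Iqcj, Ppm1l, which encodes a protein phosphatase, Ift80, a protein of the transport along cilia, and Kpna4, a nuclear import receptor. Schip1, at 561.5 kb the longest of them, had reads on 18, 24 and 32 of its 1325 fragments. Smc4, a subunit of the condensin complex, lies in the same run and had reads on 0, 2 and 4 of its 57 fragments.

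The longest contacted run covered 5 Mb at 51 to 56 Mb from the bait (85660501 to 90660500) and held 137 protein-coding gene starts, or 27.4 per Mb against 7.63 over the arm. It had 123, 228 and 222 detected fragments where 53.1, 80.8 and 122 were expected, with log2 ratios of 1.21, 1.5 and 0.87. Each of its 5 bins was above the limit in each library, the lowest ratio being 0.68. Its second bin fell to 0.13 in ES replicate 1 without the shared fragments, and the other 4 kept above the limit in each library. Its longest genes were Lrba, a regulator of vesicle traffic, the kinase gene Dclk2, Kcnn3, a calcium-activated potassium channel, Gon4l and Arhgef11. Dclk2 had reads on 10, 20 and 10 of its 280 fragments. Nes, which encodes nestin of neural progenitors, had reads on 1, 0 and 2 of 34 fragments, and Lmna, which encodes lamins A and C, on 2, 3 and 2 of 67. Mef2d, a transcription factor of muscle and neurons, had reads on 1, 1 and 3 of 55. Genes of this size thus had few detected fragments each, and the ratios were read over whole megabases.

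A further run, 60 to 62 Mb away (94660501 to 96660500), had the highest ratios of the runs, 1.37, 1.84 and 0.99, from 52, 110 and 93 detected fragments against 20.2, 30.6 and 46.7 expected. It was also the densest in genes, with 78 starts or 39 per Mb. Its second megabase was the highest of the arm by its mean ES ratio, with 26, 62 and 46 detected fragments and log2 ratios of 1.41, 2.06 and 1.02. The run held Arnt, the common partner of the aryl hydrocarbon receptor and the hypoxia-inducible factors, the ubiquitin ligase gene Rnf115, the deubiquitinase gene Otud7b, Rprd2 and Vps45, a protein of vesicle fusion. Genes used by most cells, the proteasome subunits Psmd4 and Psmb4 and the splicing factors Sf3b4 and Prpf3, lie in it as well. Of these 4, only Prpf3 had reads, on 0, 1 and 2 of its 63 fragments.

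The fifth run, the weakest in the ES libraries, 68 to 70 Mb away (102660501 to 104660500), had 26, 38 and 67 detected fragments against 17.5, 26.6 and 41.1 expected, with log2 ratios of 0.57, 0.52 and 0.71. NPC was highest here, unlike in the other 4 runs. With the monotone fit the ratios were 0.27, 0.25 and 0.25, under the limit in each library. It held Magi3, Sycp1, a protein of the paired meiotic chromosomes, Trim33, Syt6 and Dennd2c, and also the signalling GTPase gene Nras, which had reads on 0, 1 and 0 of 21 fragments. Outside the runs, the single bin with the start of Fbxw7, which encodes a substrate receptor of a ubiquitin ligase, was the second highest of the arm in ES, with 27, 53 and 52 detected fragments of 2152 and log2 ratios of 1.46, 1.83 and 1.22. No bin beyond 74 Mb was contacted in all 3 libraries with the straight line and all fragments. The bin at 86 to 87 Mb was contacted without the shared fragments, with 0.62, 1.27 and 0.67. With the quadratic fit the bin at 103 to 104 Mb was, with 0.85, 0.49 and 0.36, and with the monotone fit 5 bins beyond 80 Mb were.

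The longest avoided run, 7 to 15 Mb away (41660501 to 49660500), had 153, 243 and 336 detected fragments where 279, 434 and 545 were expected, with log2 ratios of −0.87, −0.84 and −0.70, and each of its 8 bins was below the limit in each library. Of the 8, 6 were so without the shared fragments, 1 of the others being at −0.12 in ES replicate 1 and the other at −0.12 in NPC. The run held only 4 protein-coding gene starts, the protocadherin genes Pcdh10 and Pcdh18, which serve adhesion between neurons, Pabpc4l and 1700018B24Rik. Pcdh10 had reads on 2, 4 and 2 of its 127 fragments. Its whole bin had 20, 36 and 40 detected fragments of 2520, where 34.7, 53.9 and 67.8 were expected. The share of the gene itself was thus above the fit in both ES libraries, from few fragments, and the avoided call is that of the bin. Only 1 Mb separated it from the contacted run with Maml3 and Foxo1.

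A second avoided run at 36 to 38 Mb (70660501 to 72660500) overlapped no protein-coding gene. It had log2 ratios of −0.44, −1.44 and −0.76, from 21, 16 and 37 detected fragments. At 46 to 48 Mb (80660501 to 82660500), with Pdgfc, a growth factor gene, Glrb, the beta subunit of the glycine receptor, Accn5, and Gucy1a3 and Gucy1b3, the subunits of soluble guanylate cyclase, the ratios were −1.07, −0.44 and −0.35.

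A gene-dense exception lay between the contacted runs at 51 to 56 and 60 to 62 Mb. The run at 56 to 59 Mb (90660501 to 93660500) held 68 protein-coding gene starts, 22.7 per Mb, and includes the epidermal differentiation complex, a cluster of genes for the outer layers of the skin. It had 23, 30 and 66 detected fragments against 35.4, 53.8 and 81.6 expected, with log2 ratios of −0.62, −0.84 and −0.31. None of the fragments of Sprr2a2, Sprr2a3, Flg2 and Hrnr (118, 114, 230 and 123 fragments, where Sprr2a2 and Sprr2a3 overlap) had a read in any library, and of the 51 of Pglyrp3 1 had reads in NPC. The bin with Sprr2a2, Sprr2a3 and Pglyrp3 had 6, 8 and 20 detected fragments of 2622, where 10.7, 16.3 and 24.8 were expected. At such shares genes of this size are expected to have very few detected fragments or none, so that their zeros alone do not place them below the fit. This run had the smallest share of fragments with a unique end, 66.5%, against 90.7% and 90.4% in the contacted runs on either side. Among fragments with a unique end its ratios were −0.36, −0.64 and −0.11, below the fit in each library but nearer to it, and in NPC no longer at the limit. Without the fragments shared by ES replicate 1 and NPC they were −0.35, −0.82 and −0.17. The first bin of the run was then above the fit in ES replicate 1 (0.29) and at −0.16 in NPC, and the second at −0.19 in NPC.

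Beyond 75 Mb, the runs called in both ES libraries were 7 avoided ones. The run at 75 to 81 Mb (109660501 to 115660500) had ratios of −1.0, −1.20 and −0.60 and held Ntng1, a netrin-related guidance protein, Olfm3, the collagen gene Col11a1 and the amylase genes Amy1 and Amy2a2. Ntng1 had reads on 1, 2 and 1 of its 835 fragments. The run at 82 to 86 Mb (116660501 to 120660500) was the lowest in ES replicate 1, with 11, 12 and 49 detected fragments against 30.3, 45.7 and 72.3 expected and ratios of −1.46, −1.93 and −0.56. It held Dpyd, the first enzyme of pyrimidine breakdown, Ptbp2, a splicing factor of neurons, Snx7, D3Bwg0562e and 4833424O15Rik. Dpyd, at 870.8 kb, had reads on 1, 3 and 10 of its 2040 fragments. Of the 3 lowest bins of the arm in ES, 2 lay in this run, with 1, 4 and 13 and with 4, 1 and 15 detected fragments.

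The remaining 5 runs had between 4 and 33 detected fragments in each ES library. The run at 89 to 91 Mb, with Ndst4, Ugt8a and Tram1l1, had ratios of −1.0, −1.81 and −0.43. At 101 to 103 Mb, with Bank1, Emcn and Ppp3ca, the catalytic subunit of calcineurin, they were −0.73, −0.86 and −0.84, nearly the same in the 3 libraries. At 104 to 107 Mb, with the netrin receptor gene Unc5c, Rap1gds1 and B930007M17Rik, they were −1.27, −2.05 and −1.38, the only run in which NPC was below −1. At 111 to 118 Mb, with Lphn2, Ak5, Pigk, Dnase2b and St6galnac5, they were −0.92, −0.92 and −0.55. Ak5, Pigk and St6galnac5 start in the last bin of that run, where NPC was above the fit. The ratios of this bin were −0.49, −1.08 and 0.53, from 4, 4 and 20 detected fragments. At 120 to 122 Mb, with Negr1, an adhesion protein of neurons, Tnni3k and Lrriq3, the ratios of the run were −0.75, −2.14 and −0.34. Negr1 had reads on 1, 1 and 8 of its 1755 fragments. A straight logistic line runs high at this end of the arm. With a monotone fit in its place, the last 2 runs came to −0.14, −0.09 and −0.04 and to −0.02, −1.35 and 0.12, and the runs at 101 to 103 and 89 to 91 Mb to −0.07, −0.34 and −0.36 and to −0.51, −1.16 and 0.05. In each of these 4 runs at least 1 library then lay inside the limit, as NPC did at 75 to 81 Mb (−0.25) and 82 to 86 Mb (−0.27).

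Contacted and avoided bins differed in their genes, which the rule did not use. The 19 contacted bins had 18.1 protein-coding gene starts each on average (3 to 42), the 42 avoided bins 3.52 (0 to 37) and all 120 bins 7.63. Read the other way, the 29 bins with at most 1 gene start had summed log2 ratios of −0.69, −0.91 and −0.58 in ES replicate 1, ES replicate 2 and NPC, and 1, 1 and 3 of them were above the fit. The 61 bins with 2 to 9 starts had 0.14, 0.15 and 0.12. The 30 bins with 10 or more had 0.49, 0.63 and 0.40, and 16, 16 and 19 of them were above the fit. The order was the same in 3 of 3 libraries and without the shared fragments (−0.55, −0.90 and −0.51 for the poorest bins, 0.48, 0.62 and 0.37 for the richest).

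GC content and mappability moved with gene density. GC was 37.9% in the poorest and 43.2% in the richest bins, and 79.4% and 85.5% of the fragments had a unique end. Spearman's correlation of the ratio with GC was 0.57, 0.69 and 0.69, with gene starts 0.50, 0.62 and 0.63 and with the share of unique ends 0.39, 0.52 and 0.50 (120 bins). With only unique-ended fragments the gap between the richest and the poorest bins was 1.12, 1.48 and 0.95, against 1.17, 1.54 and 0.98 with all fragments. The part of GC content was not tested.

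**Figure D5:**
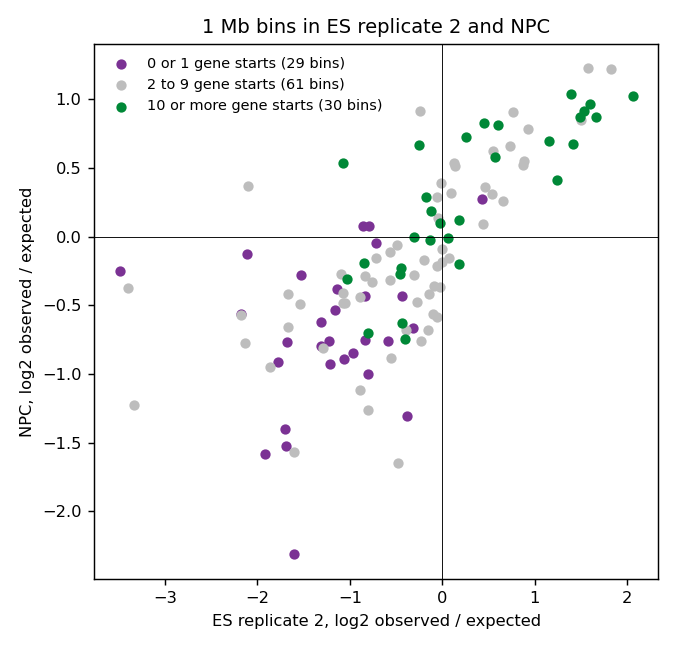
Log2 of observed over expected detected fragments in NPC (y-axis) against ES replicate 2 (x-axis), 1 point per 1 Mb bin, coloured by its protein-coding gene starts. Of the 29 bins with 0 or 1 gene starts, 1 is above 0 in ES replicate 2 and 3 in NPC; of the 30 bins with 10 or more, 16 and 19 are.

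Fragments within protein-coding genes were also detected more often than those between genes. They made up 31.7% of the fragments and 38.7%, 38.7% and 37.5% of those detected, so that their share of detection was 1.36, 1.36 and 1.29 times that outside genes. In bins with 10 or more gene starts the ratio was 1.18, 1.13 and 1.19, and in the other bins 1.44, 1.43 and 1.34. The ratios over all bins without the shared fragments were 1.16, 1.36 and 1.22. In the gene-rich bins they were then 0.89, 1.13 and 1.09, so that the direction turned in ES replicate 1. These ratios were not corrected for distance.

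Gene lists gave a mixed picture beside all 915 protein-coding genes of the arm, of which 37.6% started in bins contacted and 16.2% in bins avoided in all 3 libraries. Genes of 1 bin share its value and are not independent. Of 32 genes used by most cells, 12 (37.5%) lay in contacted and none in avoided bins, Kpna4, Smc4, Lmna and Tpm3 among the former; their contacted share was that of all genes. Of 24 developmental transcription factor and signalling genes, 6 (25%) lay in contacted bins, Foxo1, Mab21l1, Fbxw7, Etv3, Mef2d and Nras, and 0 in avoided ones. Lef1, the Wnt effector, Notch2 and Tet2 were among the 18 in neither. Of 32 neural genes, 6 (18.8%) lay in contacted bins (Dclk1, Dclk2, Nes, Kcnn3, Chrnb2 and Celsr2) and 6 in avoided bins (Pcdh10, Pcdh18, Ntng1, Olfm3, Tacr3 and Unc5c). Of 38 clustered genes of differentiated tissues, 3 (7.89%, Cd1d1, Cd5l and Fcrl1) lay in contacted and 9 (23.7%) in avoided bins, 7 of these from the skin cluster and the others Amy1 and Amy2a5. Median log2 ratios were 0.43, 0.12 and 0.12 for the genes used by most cells, −0.26, −0.08 and −0.18 for the neural genes, −0.52, −0.29 and −0.13 for the clustered genes and 0.20, 0.08 and 0.29 for all genes. With the shared fragments left out, 37.2% of all genes started in contacted and 8.42% in avoided bins. The counts were then 13 and 2 for the genes used by most cells, 5 and 0 for the developmental genes, 5 and 5 for the neural genes and 0 and 2 for the clustered genes.

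No megabase of the arm passed the test for a difference between ES cells and NPC once each library's own fall with distance was accounted for. edgeR's quasi-likelihood test called 0 of 119 bins higher and 0 lower in ES cells (0% and 0% over all 146 bins of both sides), and 3 were higher and 3 lower at an unadjusted p under 0.05; the smallest adjusted p was 0.927. DESeq2 also called 0 and 0, and without the shared fragments edgeR called 0 and 0, with 8 higher and 3 lower before adjustment. Only the 2 ES libraries give a spread in this test, and NPC, with 1 library, is taken to have the same. The common dispersion that edgeR fitted, the spread between libraries beyond counting error, was 0.0019. It was 9.8e-05, or nearly none, with the minimum of 2 or of 10 reads used below. The median dispersion of DESeq2 was 0.28 with all detected fragments. Libraries of this size were simulated with the dispersion fitted by edgeR and with rises in NPC only. In them the test recovered 19% of 2-fold and 85.7% of 4-fold differences. These shares hold only for libraries that vary as little as that dispersion of 0.0019. Recovery at a spread like the 0.28 of DESeq2 was not tested. The fitted log2 differences ran from −1.61 to 1.15 with a median standard error of 0.62.

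The bin with the smallest unadjusted p (0.00885 in edgeR's quasi-likelihood test) was the highest contacted megabase, at 95660501 to 96660500, with Fcgr1 nearest to its centre and Rnf115 its longest gene. Its log2 difference was 0.81 (standard error 0.31), from 26 and 62 detected fragments in ES cells and 46 in NPC. The bin with Dpyd and Ptbp2 followed, with −1.61 (standard error 0.70), from 4 and 1 fragments in ES cells and 15 in NPC. Counting only fragments with 2 or more reads, the Rnf115 bin passed (0.752% of all 133 bins tested), with 20 and 47 fragments in ES cells and 32 in NPC and a log2 difference of 1.14 (standard error 0.22, edgeR adjusted p = 0.017). Counting only fragments with 10 or more reads, it was 2 other bins that passed (1.96% of all 102 bins tested), both in the run at 51 to 56 Mb. The bin with Lrba had 11 and 26 such fragments in ES cells and 9 in NPC, with a log2 difference of 1.87 (standard error 0.26, edgeR adjusted p = 0.042). The bin with Smg5, Syt11, Nes, Lmna and Mef2d had 12 and 26 against 7, with 2.28 (standard error 0.29, edgeR adjusted p = 0.042). These 3 bins had adjusted p values from 0.927 to 0.936 with all detected fragments, and no bin was lower in ES cells under either minimum.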

How the data were processed

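The 3 SCR files hold counts, deposited by the authors as whole reads per DpnII fragment of chromosome 3, neither normalized nor corrected for PCR duplicates. The authors removed the bait sequence, leaving 27 nt, mapped to mm9 (Bowtie version 1.0.0 and bcl2fastq are named in the submitters' processing notes) and assigned reads to fragments. By their user guide, fragments with more than 2% of the reads were dropped at this step. The 3 files of other baits were not used here. All 391360 midpoints matched DpnII fragments of NCBIM37, the mm9 sequence, and genes are those of GENCODE vM1. Fragments more than 5 Mb from the bait were counted as detected at 1 or more reads in 1 Mb bins counted from the bait. The expected number came from a binomial fit (logit link) on log10 distance per library and side (statsmodels version 0.14.6). A prey end is unique when its 27 bases at the GATC occur once among all fragment ends of the genome. ES and NPC were compared on detected fragments per bin by edgeR (version 4.0.16, R version 4.3.3; quasi-likelihood, offset of the log expected number, bins with at least 100 fragments and 10 detected in sum, both sides adjusted together, adjustment by Benjamini-Hochberg at 0.05) and, as an alternative, by DESeq2 (version 1.42.0). The script was tested on simulated counts over 146 bins. The members and gene lists were chosen with earlier results of these data known. Named are list members, for each run in both ES libraries up to 5 genes of longest overlap, and genes of the 3 highest and 3 lowest bins and of bins past the test; Arfip1 and Dcst1 were named after their values were seen. Alternatives covered the detection minimum, bin size and grid, fragments counted, depth, shape of the fit, call limit, test, scaling and the left-out ES replicate. Leaving out fragments shared by ES replicate 1 and NPC, and DESeq2 with a quadratic fit, were added after the data were seen.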

Additional observations from a re-analysis of the deposited data

How the results depend on the processing

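The number of megabases contacted in all 3 libraries lay between 17 and 24 under every alternative run, against 19, and between 23 and 24 without either ES replicate. The number of avoided megabases was 42 and lay between 35 and 52 under most alternatives (47 without either ES replicate). It fell to 25 with the monotone fit, 27 without the fragments shared by ES replicate 1 and NPC and 20 with a limit of 0.5. No setting called a bin lower in ES cells, and bins were called higher only with 2 or more reads (1) and with 10 or more reads (2). The slope of the logit on log10 distance, averaged over the ES replicates, was −1.67 and ran from −1.69 to −1.65 without either. It was −1.88 with 2 or more reads, −2.05 with 10 or more, −1.75 with unique ends, −1.75 after thinning to 2889643 reads and −1.59 without the shared fragments. Mean ES ratios of the runs kept their direction in 110 of 110 settings and runs, the left-out replicate aside, and 57 of these moved by no more than the SD of the ES replicates. With 10 or more reads the runs at 89 to 91 and 104 to 107 Mb gave no value, since an ES library had 0 such fragments there. Without an ES replicate the test between ES and NPC has 1 library on each side and no residual degree of freedom, so it was not run. No paired analysis was possible because NPC has 1 library, which shares fewer than 2 replicate numbers with ES. Over the last 40 bins the median bin holds 4, 7 and 11 detected fragments, which limits the calls there.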
